A study of Mus musculus with 6 samples.

Results

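Mitochondrial biogenesis is the making of new mitochondria, and in fat it is under the control of a small set of nuclear genes. The 9 described here were taken by symbol from the table of read counts, and all 9 of its 20295 genes so named were found and had enough reads to be tested. They are the coactivator genes Ppargc1a, Ppargc1b and Pprc1, the corepressor gene Nrip1, the nuclear transcription factor genes Nrf1 and Gabpa, and the mitochondrial transcription factor genes Tfam, Tfb1m and Tfb2m.

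RNA was sequenced from adipocytes grown in culture out of the stromal-vascular fraction of brown fat (BAT), epididymal white fat (eWAT) and inguinal white fat (iWAT), with 2 libraries per depot. All donors were male NMRI mice of 4 to 5 weeks, with no genetic change given in the labels, and BAT cells were a pool of interscapular, cervical and axillary fat. Every culture, in all 3 depots, received 10% newborn calf serum, 30 nM insulin, 25 µg/ml ascorbate and 1 µM rosiglitazone, an agonist of the adipogenic receptor PPARγ, and was harvested on day 8 after plating. Cultures were used where more than 50% of the cells had differentiated, so each library also holds RNA of other stromal-vascular cells. Nothing in the labels says whether the 2 replicates are separate animals, cultures or repeat libraries, so every p-value reflects the spread among these libraries alone, and that spread may be technical.

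PGC-1α, the protein of Ppargc1a, binds no DNA itself but docks on nuclear receptors and on NRF-1 (the Nrf1 protein) and raises their output. It is induced by cold and cyclic AMP in brown fat, where it turns on Ucp1, the uncoupling protein of heat production, and respiratory genes. NRF-1 and NRF-2, whose DNA-binding subunit is encoded by Gabpa, bind the promoters of many respiratory chain genes and of the mitochondrial transcription factors. RIP140, the protein of Nrip1, binds nuclear receptors as a corepressor and is known to hold down oxidative and thermogenic genes in white fat.

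In mm9 coordinates, Ppargc1a (NM_008904) spans chr5:51845488-51945160, Nrip1 (NM_173440) chr16:76291107-76373294 and Pprc1 (NM_001081214) chr19:46131029-46147399. Nrf1 (NM_001164226) spans chr6:29997988-30103458, Tfam (NM_009360) chr10:70688225-70700792, Tfb1m (NM_146074) chr17:3519256-3557713 and Tfb2m (NM_008249) chr1:181458187-181476398. Ppargc1b is listed as NM_133249. The lengths over which reads were counted run from 1192 bases (Tfb1m) to 6464 (Ppargc1a), far below these spans.

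Total counts ran from 2889038 to 4807449 per library, and the members' counts from 13 (Pprc1 in BAT replicate 2) to 1627 (Gabpa in BAT replicate 1). Of all 11732 genes tested, 6.46% had an edgeR adjusted p below 0.05 for BAT against eWAT. The shares were 1.04% for BAT against iWAT and 0% for iWAT against eWAT. The 17 adipocyte markers were all tested and none passed in a contrast of depots, which does not show that their levels were equal. Their summed level ran from 143260 to 159973 CPM (counts per 1000000 in the library, scaled with trimmed-mean factors) in BAT, from 86235 to 88500 in eWAT and from 104048 to 122012 in iWAT. A single gene, Scd1, held 41.0% to 64.1% of that sum in a library, and without it, a choice made after the data were seen, the sums overlapped, at 51481 and 72807 CPM in BAT, with 42790 and 52191 in eWAT and 50165 and 51730 in iWAT. The median log2 difference of the 17 markers between BAT and eWAT was -0.06, with 7 positive and 10 negative. Of 9 brown adipocyte markers, 7 were higher in BAT than in eWAT, beside 2.71% of all genes tested. In BAT against iWAT 2 were higher, beside 0.145%. Macrophage markers were present in every depot and summed to between 2582 and 5478 CPM in eWAT, against 290 to 686 in BAT and 440 to 950 in iWAT. Single genes held much of these sums. Lgals3 was at 188 CPM in BAT replicate 2, the library with the lowest sum, and Lyz2 at 3633 CPM in eWAT replicate 1, that with the highest. Of these markers, C1qa, C1qc and Cd163 were at 0 in BAT replicate 2, and C1qa also in iWAT replicate 2. All others had reads in every library, for example Lyz2 with 160 reads and Csf1r with 17 in BAT replicate 2. In such bulk samples, fewer cells of a type and less RNA per cell cannot be told apart.

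Promoters of 4 members are shown because they carry sequence cores of the factors that these genes encode or answer to. RefSeq promoter windows on GRCm38.p6 ran from 250 bases before to 50 bases after a start site. They were matched by symbol for 8 of the 9 members, Ppargc1b being the other. A gene can have several starts, and those used were not checked against the transcripts of the counts. The NRF-1 core CGCATGCG, which reads the same on both strands, was present in 1.87% of 32851 windows of 300 bases over all genes. The NRF-2 core CCGGAAG was present on either strand in 8.86% and the core of the cyclic AMP response element, TGACGT, in 7.51%. No match in the members overlapped another. Capitals below mark a match, and each run is written on the gene's own strand.

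Gabpa, 250 bases before the start, chr16:84834874-84835123, plus strand: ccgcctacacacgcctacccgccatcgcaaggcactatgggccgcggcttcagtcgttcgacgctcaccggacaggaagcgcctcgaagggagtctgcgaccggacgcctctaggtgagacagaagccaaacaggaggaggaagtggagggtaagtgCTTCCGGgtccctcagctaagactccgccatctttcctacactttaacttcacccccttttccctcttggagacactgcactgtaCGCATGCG
Tfam, 250 bases before the start, chr10:71238045-71238294, minus strand: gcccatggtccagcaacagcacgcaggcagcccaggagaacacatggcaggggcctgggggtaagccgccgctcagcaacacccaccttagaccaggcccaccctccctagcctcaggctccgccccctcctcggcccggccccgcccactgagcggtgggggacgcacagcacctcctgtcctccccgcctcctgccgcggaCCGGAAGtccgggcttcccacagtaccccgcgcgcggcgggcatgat
Ppargc1a, 250 bases before the start, chr5:51567726-51567975, minus strand: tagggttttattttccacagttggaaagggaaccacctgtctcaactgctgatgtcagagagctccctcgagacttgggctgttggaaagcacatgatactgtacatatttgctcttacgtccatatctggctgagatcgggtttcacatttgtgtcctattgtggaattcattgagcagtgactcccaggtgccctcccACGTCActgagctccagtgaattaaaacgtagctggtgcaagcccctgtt
Tfb2m, 24 bases across its match, chr1:179546249-179546272, minus strand: aggtcgttCGCATGCGccattcgt

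The Gabpa window held an NRF-1 core whose first base lay 8 bases before the start, and an NRF-2 core, on the opposite strand, whose first base lay 93 bases before it. Tfam held 1 NRF-2 core, 47 bases before the start, and Tfb2m 1 NRF-1 core, 13 bases into the transcript counting the start as 1. Ppargc1a held 1 cyclic AMP response core, 50 bases before the start used here, which may not be that of the transcript of the counts. The windows of Pprc1, Nrip1, Nrf1 and Tfb1m held none of the 3 motifs. A match describes letters and is not evidence of binding in these cells.

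Between BAT and eWAT, 1 member passed as higher, Gabpa, and 1 as lower, Nrip1 (edgeR quasi-likelihood test, adjusted p below 0.05). Of all 11732 genes tested, 6.46% passed in this contrast, 2.71% as higher and 3.75% as lower (318 and 440 genes, or 251 and 575 when libraries were scaled to total counts alone, which moved the median of all genes from -0.03 to -0.18; the members' calls were the same under it). No member passed between BAT and iWAT, where 1.04% of all genes did, or between iWAT and eWAT, where the share was 0%. At an unadjusted p below 0.05 there were 6 members in the first contrast (25.9% of all genes), 4 in the second (16.6%) and 0 in the third (9.34%). The median log2 difference of the 9 was 0.41 for BAT minus eWAT, beside -0.03 over all genes tested. For BAT minus iWAT it was 0.13 beside -0.02, and for iWAT minus eWAT 0.19 beside 0.01. With no filter on low counts 4 members passed against eWAT (Ppargc1a, Gabpa, Tfam and Nrip1), where 10.9% of 17699 genes did, and 2 against iWAT (Gabpa and Nrip1), where 4.41% did. DESeq2 passed Gabpa and Nrip1 in both contrasts of BAT, beside 11.7% and 4.35% of all genes. With the replicate number as a block in edgeR, 5 members passed against eWAT (Ppargc1a, Gabpa, Tfam, Nrip1 and Pprc1; 23.7% of all genes) and 4 against iWAT (the same without Pprc1; 10.4%). All contrasts share libraries, so their values are given side by side and are not independent.

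**Figure D1:**
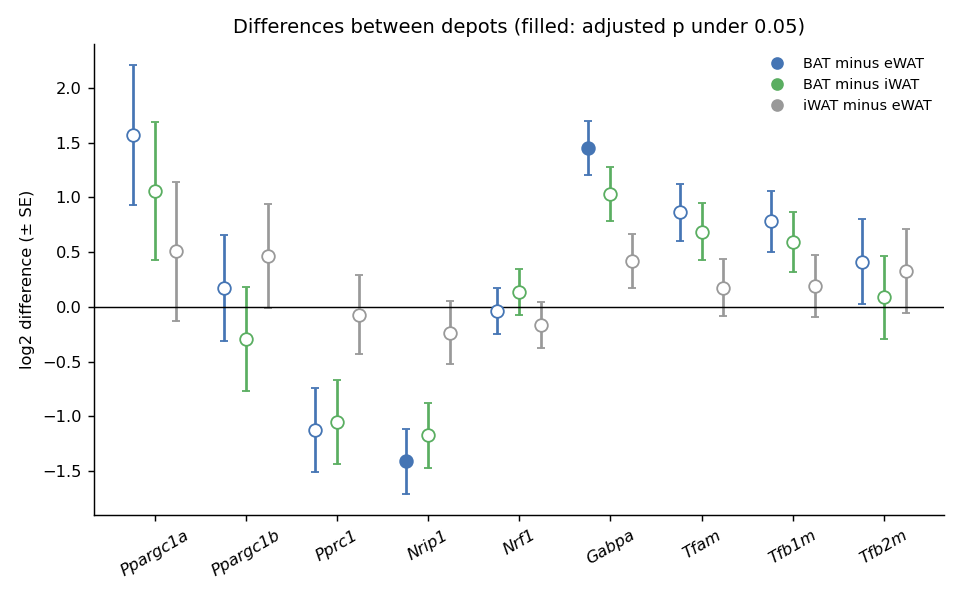
Log2 difference (y axis, ± SE from the edgeR fit) of each of the 9 genes in the 3 contrasts, with 2 libraries per depot; filled points have an adjusted p below 0.05. Filled points are those of Gabpa, at 1.45, and Nrip1, at -1.41, both for BAT minus eWAT.

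Ppargc1a had the widest range of the 9 genes, 2.75 log2 units from its lowest to its highest library. It was at 59.0 and 178 CPM in BAT replicates 1 and 2, at 26.3 and 53.5 in eWAT and at 35.8 and 77.2 in iWAT. The BAT libraries were thus above both eWAT libraries, but BAT replicate 1 lay below iWAT replicate 2. The means were 118.6 ± 84.3 CPM (SD, n = 2, as for all means here) in BAT, with 39.9 ± 19.2 in eWAT and 56.5 ± 29.2 in iWAT. The log2 difference of BAT from eWAT was 1.57 ± 0.64 (SE; edgeR adjusted p = 0.188), and that from iWAT 1.06 ± 0.63 (0.449). Between the white depots, iWAT minus eWAT was 0.51 ± 0.63 (0.978). A difference of the first size or larger was held by 8.98% of all genes tested. With no filter on low counts Ppargc1a passed between BAT and eWAT (adjusted p = 0.00673), 1 of 1937 genes called there. With the replicate number as a block it passed against eWAT (1.47, edgeR adjusted p = 0.00234) and against iWAT (0.98, 0.0191).

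Much of the spread in Ppargc1a lay between the 2 libraries of a depot. Replicate 2 was 3.02 times replicate 1 in BAT (95% exact binomial interval 2.60 to 3.52, covering counting error only), 2.03 times in eWAT (1.60 to 2.59) and 2.15 times in iWAT (1.76 to 2.64). Replicate 2 lay above replicate 1 in all 3 depots for 25.7% of all genes tested. The same held for 5 of the 9 members, which were Ppargc1a, Nrip1, Gabpa, Tfam and Tfb1m. A gap of over 1 log2 unit in that direction in all 3 depots was found for 26 of the 11732 genes (0.222%). This last count was made after the values were seen. Without BAT replicate 2 the difference from eWAT fell to 0.57, and that from iWAT to 0.07, while without BAT replicate 1 they were 2.17 and 1.66. Other measures moved with the replicate number. In each depot replicate 1 had the larger total count, for example 4807449 against 2889038 in BAT. It also had the higher summed macrophage markers, at 686 against 290 CPM in BAT, 5478 against 2582 in eWAT and 950 against 440 in iWAT. Their part in the Ppargc1a values was not tested.

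**Figure D2:**
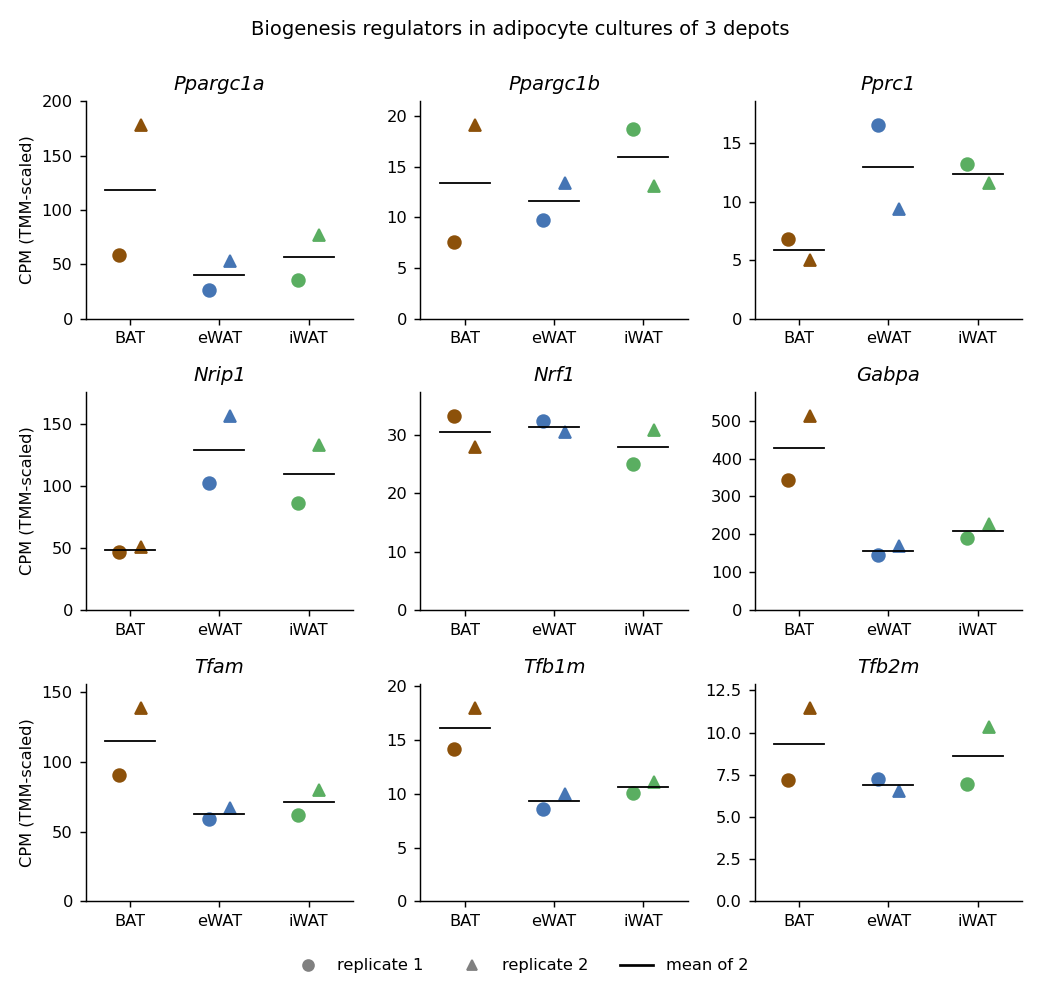
CPM (y axis, linear from 0, scaled separately in each panel) of the 9 genes in the 6 libraries, with circles for replicate 1, triangles for replicate 2 and a line at the mean of each depot. Gabpa, Tfam and Tfb1m have both BAT libraries on top, and Nrip1 and Pprc1 have both at the bottom. Ppargc1a, Nrip1, Gabpa, Tfam and Tfb1m are higher in replicate 2 of every depot.

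Neither of the other coactivators of the family passed in a contrast. Ppargc1b, which encodes PGC-1β, a coactivator with a similar reach over respiratory genes, was at 7.61 and 19.1 CPM in BAT, with 9.78 and 13.4 in eWAT and 18.8 and 13.1 in iWAT. Its depots overlapped throughout, and its log2 differences were 0.17 ± 0.49 between BAT and eWAT, -0.29 ± 0.48 between BAT and iWAT, and 0.46 ± 0.47 from eWAT to iWAT (edgeR adjusted p from 0.809 to 0.961). The first of these turned to -0.60 when BAT replicate 2 was left out, and was 0.73 when BAT replicate 1 was. Pprc1 encodes PRC, a relative of PGC-1α that is known as a coactivator in growing cells. It was at 6.76 and 4.97 CPM in BAT, below all 4 white fat libraries, which held 16.5 and 9.39 in eWAT and 13.2 and 11.6 in iWAT. The BAT values were lower by log2 differences of -1.12 ± 0.38 from eWAT (adjusted p = 0.134) and -1.05 ± 0.39 from iWAT (0.255). The first was -0.65 with eWAT replicate 1 left out, and passed with the replicate number as a block (-1.13, edgeR adjusted p = 0.0351). With 32 and 13 reads in the BAT libraries its depth was low: the lower of these counts has an exact Poisson interval of 2.65 to 8.50 CPM.

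Nrip1 was lower in BAT than in eWAT cultures. It was at 46.7 and 50.9 CPM in BAT, against 103 and 156 in eWAT and 86.4 and 133 in iWAT. Both BAT libraries lay below all 4 white fat libraries, and the means were 48.8 ± 2.94, 129.6 ± 38.0 and 109.9 ± 33.3 CPM in that order. The log2 difference was -1.41 ± 0.30 for BAT minus eWAT (edgeR adjusted p = 0.0464), or 0.376 times the eWAT level. For BAT minus iWAT it was -1.17 ± 0.30 (adjusted p = 0.145), and for iWAT minus eWAT -0.24 ± 0.29 (0.978). The call against eWAT lies close to the threshold: it was lost by limma voom (adjusted p = 0.0546), in a fit of these depots alone (0.0620) and without any 1 of the 6 libraries (0.0646 to 0.171), with log2 differences from -1.68 to -1.07. DESeq2 passed Nrip1 in the contrast with iWAT as well (adjusted p = 0.0327), where it called 510 genes, and so did the fit with the replicate block (-1.13, edgeR adjusted p = 0.0106).

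Markers of other cells moved with this contrast. Over all genes tested, 3.75% passed as lower in BAT than eWAT and 2.71% as higher. Against iWAT these shares were 0.895% and 0.145%. Among 17 tested genes that mark macrophages, 7 passed as lower in BAT than eWAT and 0 as higher, with a median log2 difference of -3.59. Between BAT and iWAT none of the 17 passed, with a median of -0.53, and the summed levels overlapped. Among 16 tested preadipocyte and fibroblast genes, 7 passed as lower in BAT than eWAT and 1 as higher (median -1.75), while against iWAT these counts were 7 and 0 (median -2.42). Their summed level was 4771 to 7884 CPM in BAT, 22309 to 23032 in eWAT and 25213 to 26904 in iWAT. The part of these cells in the Nrip1 result was not tested.

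A coactivator and a corepressor that act on the same receptors can be compared inside a library, where scaling cancels. The ratio of Ppargc1a to Nrip1, in reads per kilobase of counted length, was 0.885 and 2.45 in BAT replicates 1 and 2, 0.180 and 0.239 in eWAT and 0.291 and 0.405 in iWAT. Nrip1 was thus above Ppargc1a in all 4 white fat libraries and in BAT replicate 1, and Ppargc1a above Nrip1 in BAT replicate 2 alone. Both BAT ratios were above those of the other depots, and the eWAT and iWAT ratios did not overlap either. With 2 libraries per depot, no exact test of 1 value can pass: the smallest two-sided p of an exact permutation test is 0.333.

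**Figure D3:**
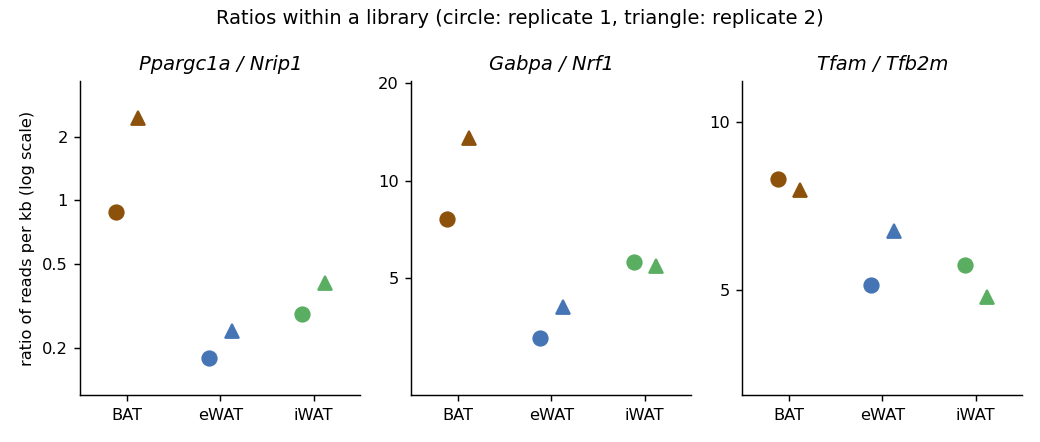
Ratios of reads per kilobase between pairs of the genes within each library (y axis, log scale), by depot, with circles for replicate 1 and triangles for replicate 2. For Ppargc1a over Nrip1 and for Gabpa over Nrf1 both BAT points lie above the other 4, and the eWAT points are the lowest pair.

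Gabpa, which encodes the DNA-binding subunit of NRF-2, was higher in BAT than in eWAT. Its level was 344 and 511 CPM in BAT, with 144 and 169 in eWAT and 190 and 228 in iWAT. No depots overlapped: BAT was on top, iWAT in the middle and eWAT lowest. The means were 427.5 ± 118.4, 156.4 ± 17.3 and 209.2 ± 27.0 CPM for BAT, eWAT and iWAT. BAT exceeded eWAT by 1.45 ± 0.25 log2 units, or 2.73 times (edgeR adjusted p = 0.0320). BAT minus iWAT was 1.03 ± 0.24 (adjusted p = 0.130) and iWAT minus eWAT 0.42 ± 0.24 (0.780). The call against eWAT was kept without BAT replicate 1, and lost without any 1 of the other 5 libraries (adjusted p from 0.0645 to 0.164) and in a fit of these depots alone (0.0606), with log2 differences from 1.13 to 1.72. DESeq2 called it against iWAT too (adjusted p = 0.0154). With the replicate number as a block the difference from iWAT was 1.01 (edgeR adjusted p = 0.00993). The summed brown adipocyte markers stood in the same order of depots, at 6698 to 12108 CPM in BAT, 1784 to 2033 in iWAT and 450 to 623 in eWAT. Ucp1 alone held 4924 and 9294 CPM of the sum in BAT and 1114 and 995 in iWAT. By log2 difference all 9 of these markers were higher in BAT than in either white depot. Between iWAT and eWAT 8 were higher in iWAT and 1 lower. The part of cell makeup in the Gabpa result was not tested.

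In mm9, the build of the alignment, Gabpa (NM_008065) lies on chromosome 16 from 84835369 to 84864023. It starts head to head with Atp5j, an ATP synthase subunit gene, and the spans of the pair overlap by 451 bases on opposite strands. The strand setting of the counting is not given in the sources used here, so reads from the overlap cannot be assigned. Atp5j had fewer reads than Gabpa in each library, 2262 in all, but more per kilobase of counted length: the ratio of Gabpa to Atp5j per kilobase was 0.222 to 0.584. Its level was 115 and 114 CPM in BAT, with 84.8 and 81.1 in eWAT and 104 and 85.7 in iWAT, a log2 difference of 0.46 ± 0.17 for BAT minus eWAT (edgeR adjusted p = 0.151).

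Nrf1, the partner factor, was the most even of the 9 genes, with a range of 0.40 log2 units over the libraries. Its level was 33.2 and 27.9 CPM in BAT, with 32.4 and 30.4 in eWAT and 25.0 and 30.9 in iWAT, and the depots overlapped. On the log2 scale BAT differed from eWAT by -0.04 ± 0.21 and from iWAT by 0.13 ± 0.21, and iWAT from eWAT by -0.17 ± 0.21 (edgeR adjusted p from 0.805 to 0.978). The ratio of Gabpa to Nrf1 per kilobase within a library was 7.64 and 13.5 in BAT, with 3.28 and 4.09 in eWAT and 5.60 and 5.45 in iWAT. As for the Gabpa level itself, no depots overlapped.

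None of the 3 factors that act inside mitochondria passed, and their differences between BAT and eWAT were all positive. Tfam encodes the protein that packages mitochondrial DNA and bends its promoters for transcription. It was at 90.7 and 139 CPM in BAT, with 58.9 and 66.8 in eWAT and 61.8 and 80.2 in iWAT, so both BAT libraries were above the other 4. Its log2 difference was 0.86 ± 0.26 for BAT minus eWAT (edgeR adjusted p = 0.0999) and 0.69 ± 0.26 for BAT minus iWAT (0.263). Without a filter on low counts Tfam passed against eWAT (adjusted p = 0.0252). With the replicate number as a block it passed against eWAT (0.84, edgeR adjusted p = 0.00918) and iWAT (0.67, 0.0368). Without BAT replicate 2 its difference from eWAT was 0.53.

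Tfb2m encodes the factor that opens mitochondrial promoters together with the polymerase, and Tfb1m a methyltransferase of mitochondrial ribosomal RNA. Tfb1m was at 14.2 and 17.97 CPM in BAT, with 8.62 and 9.95 in eWAT and 10.1 and 11.1 in iWAT, and no depots overlapped. The white depots were close, with 37 and 35 reads in eWAT and 42 and 44 in iWAT, and their exact Poisson intervals overlapped. Tfb1m differed by 0.78 ± 0.28 for BAT minus eWAT (edgeR adjusted p = 0.148) and by 0.59 ± 0.28 for BAT minus iWAT (0.348). For iWAT minus eWAT the difference was 0.19 ± 0.28 (0.988). Tfb2m was at 7.19 and 11.5 CPM in BAT, with 7.22 and 6.54 in eWAT and 6.98 and 10.3 in iWAT. Its depots overlapped, its difference was 0.41 ± 0.39 for BAT minus eWAT (adjusted p = 0.557), and it had 23 to 41 reads per library. With BAT replicate 2 left out that difference was 0.057, and with BAT replicate 1 left out 0.74. Tfb1m overlaps Tiam2 by 142 bases and the span of Cldn20 on the opposite strand, genes with 121 and 2 reads in all.

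Libraries without overlap between depots were common among all genes. Against eWAT, 4 of the 9 members were higher in both BAT libraries and 2 lower in both, and over all genes the shares were 26.8% and 28.5%. Against iWAT these were 3 and 2 members, beside 23.9% and 24.1%. Between iWAT and eWAT 2 members, Gabpa and Tfb1m, were higher in both iWAT libraries, beside 19.2% of all genes, and 0 lower, beside 18.8%.

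Per kilobase of counted length, Gabpa had the highest mean level of the 9 in every depot, at 87.9 ± 24.3 CPM per kilobase in BAT, 32.2 ± 3.56 in eWAT and 43.0 ± 5.56 in iWAT. In eWAT its libraries overlapped those of Nrip1, next in order at 28.6 ± 8.38. In BAT, Tfam came next at 29.3 ± 8.69, followed by Ppargc1a at 18.3 ± 13.0, with which it overlapped, and Tfb1m at 13.5 ± 2.26. Nrip1 followed in BAT, at 10.8 ± 0.648, above Nrf1 at 8.52 ± 1.04. In BAT replicate 1, however, Ppargc1a was at 9.12, below Tfb1m, Nrip1 and Nrf1 in that library. In iWAT, Nrip1 at 24.3 ± 7.36 and Tfam at 18.1 ± 3.32 overlapped. Ppargc1a was at 6.17 ± 2.97 in eWAT, where it overlapped Tfb1m, and at 8.74 ± 4.52 in iWAT, where it overlapped Tfb1m and Nrf1. Tfb2m, Ppargc1b and Pprc1 held the last places in every depot, from 4.35 ± 1.10 for Ppargc1b in iWAT down to 1.12 ± 0.242 for Pprc1 in BAT.

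The authors' deposited table of their own tests called more of these genes. Between eWAT and BAT it holds adjusted p-values below 0.05 for 5 members, beside 15.6% of its 20295 genes. Ppargc1a (4.53e-07), Gabpa (8.56e-09) and Tfam (0.00461) were higher in BAT and Nrip1 (2.73e-06) and Pprc1 (0.00830) lower. Between iWAT and BAT the authors' deposited table has 4, beside 8.24% of genes, which are Ppargc1a (0.00321) and Gabpa (0.000318) as higher and Nrip1 (0.000188) and Pprc1 (0.0196) as lower. Between eWAT and iWAT it has 0 of the 9, beside 8.52% of genes. Its log2 fold changes for Ppargc1a were 1.46 and 0.93 in the contrasts of BAT with eWAT and with iWAT. From the counts they were 1.57 and 1.06 with depot alone, and 1.47 and 0.98 with the replicate block. With that block the same 5 members passed against eWAT, and against iWAT Tfam passed in place of Pprc1. The headers of the authors' table do not give the terms of their model.

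Profiles over the 6 libraries were followed for the 2 members with the widest ranges, Ppargc1a and Gabpa. Likeness was the root mean square difference of log2 CPM after each gene was centred on its own mean, over 10100 genes with a mean of at least 5 CPM. Around Ppargc1a the nearest genes were Slc25a42, a mitochondrial carrier of coenzyme A (0.16 log2 units), Shmt1, a cytosolic serine hydroxymethyltransferase (0.22), Cecr2 (0.22), Fbxo21 (0.26) and Slc2a4, the insulin-regulated glucose transporter (0.26). The median gene was 0.90 away. Slc25a42 was at 52.2 and 158 CPM in BAT, with 21.4 and 38.4 in eWAT and 33.2 and 52.8 in iWAT, with replicate 2 the higher in every depot as for Ppargc1a.

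Around Gabpa the profiles lay closer. They belonged to Coq10a, a coenzyme Q binding protein (0.05), Hibch, an enzyme of valine breakdown (0.07), Dld, the shared E3 subunit of the mitochondrial dehydrogenase complexes (0.07), Ndufa5, a subunit of complex I (0.07) and Grsf1, an RNA binding protein of mitochondrial RNA granules (0.07). The median gene was 0.68 away. Dld, for example, was at 956 and 1552 CPM in BAT, with 433 and 530 in eWAT and 586 and 634 in iWAT. Among the members themselves the nearest pair was Tfam and Tfb1m (0.11), followed by Gabpa and Tfam (0.24), and the farthest was Ppargc1a and Pprc1 (1.40). All these measures come from the same 6 libraries and describe them.

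**Figure D4:**
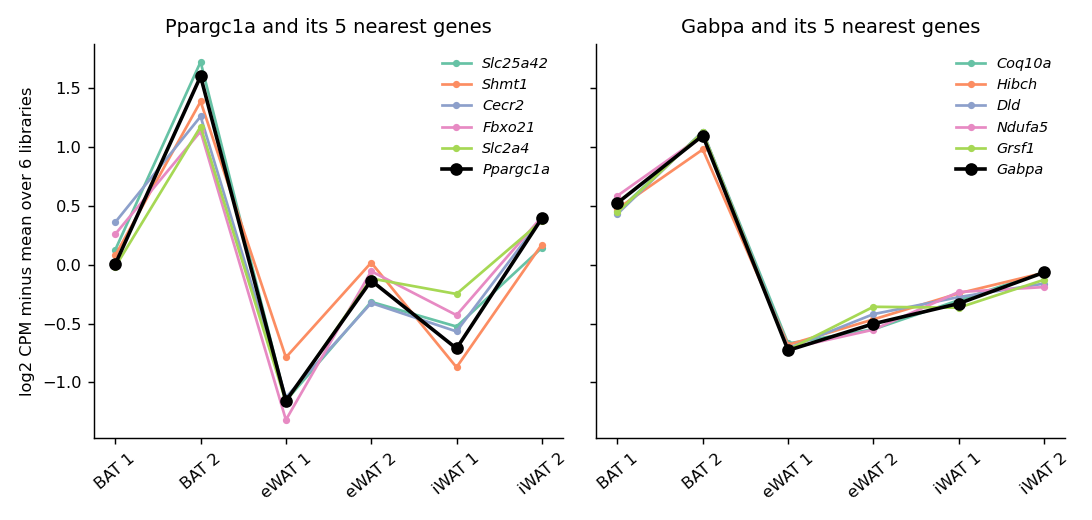
Log2 CPM of Ppargc1a (left) and Gabpa (right), in black, and of the 5 genes nearest to each, minus each gene's mean over the 6 libraries on the x axis; lines join libraries for legibility and do not stand for an order. Ppargc1a and its nearest genes are higher in replicate 2 than in replicate 1 of each depot, and Gabpa and its nearest genes have their highest values in both BAT libraries.

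The rest of the pathway was read from lists of genes with related roles, chosen with results of these data known. Of 26 tested receptors and cofactors that work with PGC-1α, 2 passed as higher in BAT than eWAT and 1 as lower, with a median log2 difference of -0.05. Over all genes tested, 2.71% passed as higher and 3.75% as lower. Esrrg, an orphan receptor that binds PGC-1α, rose by 4.06 ± 0.83 (edgeR adjusted p = 0.0436), from 3 and 5 reads in eWAT to 43 and 71 in BAT, beside 3 and 10 in iWAT. Ppara, the receptor that drives fatty acid oxidation genes, rose by 2.24 ± 0.44 (0.0414) and was at 507 and 784 CPM in BAT, with 83.4 and 189 in eWAT and 146 and 206 in iWAT. Rxra, the dimer partner of PPARα and other nuclear receptors, changed by -0.92 ± 0.16 (0.0329), from 93.4 and 94.1 CPM in eWAT to 47.8 and 51.6 in BAT. None of the 26 passed in the contrasts with iWAT; the smallest unadjusted p for BAT minus iWAT were those of Rxra (-0.74) and Mef2c (-1.03).

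Of 34 upstream regulators of PGC-1α and RIP140, 2 were higher in BAT than in eWAT, 0 were lower, and the median was 0.11, beside 2.71% higher and 3.75% lower over all genes tested. Prdm16, a coregulator of brown fat identity, rose by 3.43 ± 0.65 (edgeR adjusted p = 0.0373), with 24 and 25 reads in BAT, 20 and 21 in iWAT and 4 and 1 in eWAT. Atf2, a factor of the stress kinase and cyclic AMP pathways that acts on the Ppargc1a promoter, rose by 0.97 ± 0.21 (0.0490). Of 15 corepressors and other brakes, 0 passed in any contrast. Over all genes tested, 6.46% passed for BAT against eWAT, 1.04% against iWAT and 0% between the white depots. The medians of the 15 were -0.12 against eWAT, -0.13 against iWAT and -0.03 between the white depots. Twist1, which binds PGC-1α as an inhibitor, had the smallest unadjusted p of them in the contrasts with iWAT, with 1.81 ± 0.21 for iWAT minus eWAT (adjusted p = 0.0759) and -1.25 ± 0.21 for BAT minus iWAT (0.0611).

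Lists of genes that work downstream of the 9 held calls against eWAT, all of them higher in BAT, beside 2.71% higher and 3.75% lower over all genes tested. The brown adipocyte markers moved with them (7 of 9 higher), and the part of cell makeup was not tested. Of 39 tested genes that copy, transcribe and process mitochondrial DNA and its RNA, 5 were higher in BAT than in eWAT and 0 lower (median 0.60). These were Mterf2, a mitochondrial termination factor family gene (1.43 ± 0.24), Fastkd1 (1.38 ± 0.23) and Fastkd2 (0.85 ± 0.16), which act on mitochondrial RNA, Ptcd3 (1.32 ± 0.22), and Nsun4 (1.10), with edgeR adjusted p from 0.0313 to 0.0416. Polrmt, the mitochondrial RNA polymerase, was at 20.1 and 42.4 CPM in BAT and at 23.3 and 36.1 in eWAT, with a difference of 0.06 ± 0.40. A list of 32 genes of the kind that NRF-1 and NRF-2 regulate held respiratory chain, import and assembly genes, with Alas1 and Mrps12 besides. Of these 32, 13 were higher and 0 lower (median 0.93), among them cytochrome c (Cycs, 1.40 ± 0.17), Cox7b (1.41 ± 0.19), Cox5a (1.27 ± 0.19) and Cox6c (1.32 ± 0.20). In the contrast of BAT with iWAT none of these passed, beside 1.04% of all genes tested. The medians there were 0.43 for the mitochondrial DNA genes and 0.66 for the respiratory genes. The smallest unadjusted p there were those of Fastkd2 (0.90) and Ptcd3 (1.16) in the first list, and of Cycs (0.95) and Cox5a (1.04) in the second, with adjusted p from 0.0779 to 0.0869. Between iWAT and eWAT, none passed either, beside 0% of all genes tested, with medians of 0.15 and 0.26.

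**Figure D5:**
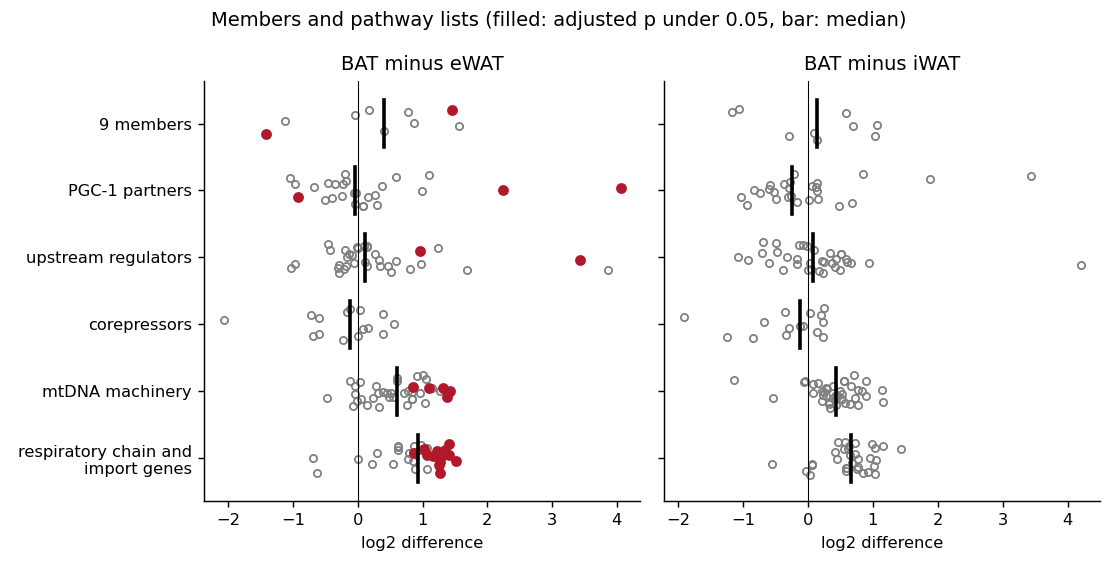
Log2 differences (x axis) of the 9 genes and of the genes in 5 pathway lists for BAT minus eWAT (left) and BAT minus iWAT (right), 1 point per tested gene, with filled points at an adjusted p below 0.05 and a bar at the median. On the left the median is 0.60 for mitochondrial DNA machinery and 0.93 for respiratory chain and import genes. On the right no point is filled, in a contrast where 1.04% of all genes tested passed.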

How the data were processed

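The authors aligned reads with STAR to the mouse build mm9, per the submitters' processing notes. Its version, the counting program and the strand setting are not stated in the labels. The table of counts, as deposited, holds raw whole-number read counts per RefSeq gene, per the file headers, with the length over which each gene was counted. A second deposited table by the authors holds log2 fold changes, likelihood ratio scores, raw and adjusted p-values and log2 CPM per library. It was used only where the text names it.

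All 6 libraries entered 1 edgeR 4.0.16 fit (R 4.3.3; quasi-likelihood F test, two-sided; TMM factors 0.907 to 1.05; depot as the only term). The filter filterByExpr kept 11732 of 20295 genes, with 99.73% to 99.81% of counts, and adjusted p-values are Benjamini-Hochberg values over these. A call is an adjusted p below 0.05. The common biological coefficient of variation was 0.251. The SE is the absolute log2 difference divided by the square root of F. Depth ran from 2889038 to 4807449 counts, at which 3 counts equal 0.624 to 1.04 CPM. Log2 CPM had 0.5 counts added. Same-numbered libraries deviated together: across genes, the difference of replicate 2 from replicate 1 correlated between depots at 0.39, 0.43 and 0.53. The labels do not say what the numbers mark, so the pairing comes from the data alone, and the fit with the replicate block is given as an alternative where it changes a call. Scripts were tested on simulated data. The 14 alternatives include limma 3.58.1 (voom), DESeq2 1.42.0 and each library left out; figures used matplotlib 3.10.9.

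The members and the gene lists were chosen with earlier results of these data known. Named were the 9 members, up to 4 called genes per pathway list and contrast by smallest adjusted p (or 2 by smallest unadjusted p where none was called), and the 5 genes nearest to the 2 members of widest range; Esrrg, Polrmt and Atp5j values and those in the closing section were otherwise chosen after they were seen. Promoter sequences are those of RefSeq on GRCm38.p6, which is not the build of the counts.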

Additional observations from a re-analysis of the deposited data

How the results depend on the processing

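The count of genes called between BAT and eWAT was 758, and 1937 with no filter on low counts, 1370 by DESeq2, 156 in a fit of these depots alone, and from 17 to 829 with 1 library left out (829 without BAT replicate 1, 17 without BAT replicate 2, 71 and 77 without an eWAT library, 146 and 194 without an iWAT library). Between BAT and iWAT it was 122, and 780, 510, 69 by limma voom, and 0 to 94 with a library left out (17 and 0 without BAT replicates 1 and 2, 4 and 0 without iWAT replicates 1 and 2, 94 and 84 without eWAT replicates 1 and 2). Between iWAT and eWAT it was 0 (1096 at an unadjusted p below 0.05), and 557 with no filter, 301 by DESeq2, 1 by limma voom, 2 in a fit of these depots alone and 0 to 3 with a library left out. Gabpa kept its sign against eWAT under all 14 alternatives and passed under 8, and Nrip1 kept it under 14 and passed under 6. Gabpa and Nrip1 passed against iWAT with no filter and by DESeq2.

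With the number as a replicate block, calls rose to 2780, 1225 and 563 in the 3 contrasts. The block changed no other call of a member than those named beside the results.

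Signs that turned were all of differences that passed in no setting. Ppargc1b, BAT minus eWAT, was -0.056 by limma voom and -0.60 to 0.73 with a library left out. Tfb2m, BAT minus iWAT, was -0.013 with total counts only and -0.26 to 0.41 with a library left out. The latter ranges were -0.16 to 0.076 for Nrf1 in BAT minus eWAT, and -1.06 to 0.27 for Ppargc1b and -0.0084 to 0.29 for Nrf1 in BAT minus iWAT. In iWAT minus eWAT they were -0.41 to 0.40 for Pprc1, -0.58 to 0.10 for Nrip1, -0.15 to 1.10 for Ppargc1a and -0.022 to 0.34 for Tfam. The causes were not tested. Pprc1, Tfb1m, Tfb2m and Ppargc1b had 13 to 78 reads per library.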

Other observations

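A few genes of the PGC-1α pathway, singled out after their values were seen, had large differences that missed the threshold. Perm1, a PGC-1 and ERR induced regulator known from muscle, had 36 and 92 reads in BAT, with 7 and 4 in eWAT and 3 and 6 in iWAT. Its log2 difference was 3.87 ± 0.86 for BAT minus eWAT (edgeR adjusted p = 0.0527) and 4.20 ± 0.89 for BAT minus iWAT (0.108). Of 18 skeletal muscle markers 13 had too few reads to be tested, and the sum over all 18 was 47.8 to 64.0 CPM in BAT, 27.0 to 56.8 in eWAT and 23.3 to 33.9 in iWAT. Some of them moved with Perm1: Ttn was at 24.9 and 19.1 CPM in BAT and at 3.98 to 8.80 in the other 4 libraries, and Myh1 had 21 and 11 reads in BAT and 0 to 6 elsewhere. Des and Actn3 were higher in eWAT than in BAT in both libraries. Of the 5 muscle markers tested, 1 passed as lower in BAT than eWAT and 0 as higher, beside 3.75% and 2.71% of all genes. Against iWAT 0 passed, beside 1.04% of all genes. The part of muscle cells was not tested.

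Irf4, a transcription factor that works with PGC-1α on thermogenic genes, was at 7.61 and 24.5 CPM in BAT, with 1.86 and 7.96 in eWAT and 8.66 and 56.8 in iWAT. Replicate 2 was the higher library in each depot, as for Ppargc1a and 25.7% of all genes tested, and the highest level was in an iWAT library. Esrra, the receptor most often paired with PGC-1α, was at 120 and 216 CPM in BAT, with 72.0 and 97.3 in eWAT and 83.2 and 104 in iWAT, a log2 difference of 0.99 ± 0.32 for BAT minus eWAT (edgeR adjusted p = 0.118).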
